A study of Mus musculus with 36 samples.

Results

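The cytochrome P450 genes of families 1 to 4, the enzymes that oxidise drugs, plant compounds, pollutants, steroids and fatty acids, were examined in liver and visceral white adipose tissue (visWAT) of the same mice. Members were all genes annotated as protein coding whose name starts with Cyp, a family number from 1 to 4, a subfamily letter and a gene number, a rule on names and annotation alone. The rule took 81 of the 56748 genes listed: 3 of family 1, 49 of family 2, 9 of family 3 and 20 of family 4. The 20 P450 genes of the other families, which make steroids, bile acids and vitamin derivatives, were left aside. RNA-seq was available for 36 libraries, 1 from liver and 1 from epididymal fat of each of 18 male C57BL/6J mice. Mlkl Adi-KO mice, called KO below, carried loxP-flanked Mlkl and Adipo-Cre, which acts in mature adipocytes, and WT mice were littermates with the floxed alleles and without Cre. The deletion was thus aimed at adipocytes and not at hepatocytes. From an age of 16 weeks the mice received normal chow (NCD) or high-fat diet (HFD) for 16 weeks, which gave 4 WT NCD, 4 KO NCD, 5 WT HFD and 5 KO HFD mice in each tissue, 8 groups in all.

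P450 enzymes hold a heme group, sit in the membrane of the endoplasmic reticulum and insert an oxygen atom into their substrate with electrons from the reductase Por. Family 1 is known as the target of the aryl hydrocarbon receptor (AhR), which senses dioxin-like and plant compounds. Many family 2 and 3 genes of the liver respond to CAR and PXR, the receptors for drugs and bile acids, while the Cyp4a genes encode fatty-acid omega-hydroxylases controlled by PPARα, the receptor for fatty acids. In mouse liver, pulsatile growth hormone gives several members a strong sex difference, with Cyp2d9 and Cyp4a12a high in males and Cyp2a4, Cyp2b9 and Cyp2b13 high in females. The genes lie in tandem arrays of copies, and copies that are nearly the same can share reads.

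The libraries held 20875463 to 25530574 reads on genes in liver and 21580696 to 30322171 in visWAT. Values are FPKM, reads divided by gene length and by a library size that the authors scaled between libraries. Differences are log2 fold changes on the log2(FPKM + 1) scale with their standard error, which understate the change of genes with low FPKM, and a gene is called where limma's adjusted p was under 0.05 over all genes whose FPKM averaged 0.5 or more in the libraries compared. Values of the mice of a group are given in ascending order of mouse number: 165, 180, 182 and 183 for WT NCD, 166, 179, 197 and 199 for KO NCD, 154, 155, 161, 162 and 164 for WT HFD, and 151, 152, 153, 156 and 157 for KO HFD. Replicates were separate mice. In bulk tissue, fewer cells of a type and less RNA per cell cannot be told apart.

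Some libraries stood apart. Mlkl in visWAT was 1.96 to 2.72 FPKM in the 9 KO libraries and 3.91 to 6.28 in 8 of the 9 WT libraries, while the visWAT library labelled WT NCD 182 held 2.29, against its label. By limma Mlkl differed between genotypes in visWAT on HFD (log2 fold change -0.83, adjusted p = 0.00162) and was not called on NCD (-0.61, adjusted p = 0.916). The liver library labelled WT NCD 182 is described below, since many of its P450 genes lay outside the range of the other livers. The visWAT library of WT NCD 183 held 254930 summed FPKM of seminal vesicle genes, against 0 to 84.5 in the KO NCD and HFD libraries. The median of the 4 WT NCD libraries was 167 FPKM, so 183 was not the only one of that group above this range. The visWAT library of KO HFD 156 held 1048 summed FPKM of the 10 hepatocyte markers, against 2.11 to 162 in the others, and its albumin (Alb) was 459.6 FPKM. Liver libraries held 54468 to 83318 summed FPKM of hepatocyte markers with none at 0, and the 10 mature adipocyte markers of visWAT summed to 6148 to 26425 FPKM with none at 0, as the tissue labels say.

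Near-identical members were found from the coding sequences, since reads from such copies could be given to either. Among the 81 encoded proteins, 12 had a partner at 95% identity or more, in 5 clusters: Cyp3a41a and Cyp3a41b (100%), Cyp4a12a and Cyp4a12b (97.83%), Cyp2a4 and Cyp2a5 (97.57%), Cyp2c40, Cyp2c67, Cyp2c68 and Cyp2c69 (95.11 to 97.15% for the linking pairs), and Cyp3a25 and Cyp3a59 (95.03%). Exact stretches of 150 bases, the read length, were shared with another member by 28 genes. For 6 of them the shared windows passed 10% of all their windows, led by Cyp3a41a (82.89%), Cyp3a41b (82.72%), Cyp4a12b (24.74%), Cyp4a12a (19.96%), Cyp2c40 (18.99%) and Cyp2c69 (18.11%). How the authors' counting treated reads that fit several genes was not given in the sources used here. Values of Cyp4a12a and Cyp4a12b and of the Cyp2c40 cluster are therefore uncertain between the copies, and summed values are given beside them.

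The stretches show how little separates copies of 3 of these clusters, whose values are given below. Each runs over 90 coding bases on the coding strand, 5′ to 3′, from the GRCm39 genome, with capitals at the bases that differ within the set. Cyp2a4 (chr7:26006594-26014513, plus strand) and Cyp2a5 (chr7:26534730-26542973, plus strand) differed at 23 of 1485 coding bases, and codons 194 to 223 hold 5 of these.
Cyp2a4: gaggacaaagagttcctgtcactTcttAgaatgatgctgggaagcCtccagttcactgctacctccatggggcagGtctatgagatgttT
Cyp2a5: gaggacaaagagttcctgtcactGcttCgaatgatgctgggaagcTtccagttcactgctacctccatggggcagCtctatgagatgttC
Cyp4a12a (chr4:115156243-115190012, plus strand) and Cyp4a12b (chr4:115268821-115296231, plus strand) differed at 23 of 1527 coding bases, with 7 of them in codons 221 to 250.
Cyp4a12a: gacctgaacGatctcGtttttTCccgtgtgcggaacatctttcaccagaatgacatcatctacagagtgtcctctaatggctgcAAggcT
Cyp4a12b: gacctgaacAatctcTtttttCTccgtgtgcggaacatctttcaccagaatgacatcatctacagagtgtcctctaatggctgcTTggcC
The 4 Cyp2c copies on the minus strand of chromosome 19 differed at 66 of 1476 positions, and codons 73 to 102 hold 10 of these. Cyp2c67 lies at chr19:39597286-39637495, Cyp2c68 at chr19:39677278-39729498, Cyp2c40 at chr19:39755515-39801258 and Cyp2c69 at chr19:39831258-39875243.
Cyp2c40: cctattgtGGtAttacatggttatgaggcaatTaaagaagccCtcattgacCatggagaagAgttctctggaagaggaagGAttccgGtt
Cyp2c67: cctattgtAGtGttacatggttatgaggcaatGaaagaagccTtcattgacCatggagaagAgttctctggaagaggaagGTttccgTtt
Cyp2c68: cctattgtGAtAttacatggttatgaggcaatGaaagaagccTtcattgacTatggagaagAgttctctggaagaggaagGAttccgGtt
Cyp2c69: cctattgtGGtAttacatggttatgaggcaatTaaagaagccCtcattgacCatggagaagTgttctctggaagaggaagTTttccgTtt
In liver, Cyp2c67 was measured at 121 to 247 FPKM and Cyp2c68 at 59.3 to 178, while Cyp2c40 stayed between 0.128 and 3.03 and Cyp2c69 between 0 and 0.509.

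Promoter sequences of RefSeq (GRCm38.p6, from 250 bases before the start to 50 after it) were matched by symbol for 65 of the 81 members. They are shown for Cyp2a4 and Cyp2a5 because the levels of both genes in liver were far apart: Cyp2a5 was 207 to 563 FPKM in the 18 livers and Cyp2a4 was 0.0991 to 4.85 in 17 of them. The 250 bases at chr7:26306942-26307191 and chr7:26835089-26835338, both on the plus strand, aligned without a gap over 249 bases and differed at 4, an identity of 98.39%. Capitals mark the differing bases.
Cyp2a4: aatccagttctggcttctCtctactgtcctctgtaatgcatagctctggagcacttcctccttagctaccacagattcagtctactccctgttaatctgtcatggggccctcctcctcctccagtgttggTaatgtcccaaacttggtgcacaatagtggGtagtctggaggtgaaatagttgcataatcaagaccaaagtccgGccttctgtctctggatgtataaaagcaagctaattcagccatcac
Cyp2a5: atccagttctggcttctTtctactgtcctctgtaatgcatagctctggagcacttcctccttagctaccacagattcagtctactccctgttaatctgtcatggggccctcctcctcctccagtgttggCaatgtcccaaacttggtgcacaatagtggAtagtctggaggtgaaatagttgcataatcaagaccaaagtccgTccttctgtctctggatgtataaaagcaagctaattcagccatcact

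A direct repeat of the letters AGGNCA with 1 base of any kind between the copies, the kind of element that PPARα and HNF4α are known to bind, was searched for on both strands of the same promoters. It was present in 3 of the 65 members (4.62%) and in 111 of all 32851 promoters (0.338%). The 3 were the liver genes Cyp2d10, Cyp2d9 and Cyp2d40 of chromosome 15, whose motif began 57, 54 and 117 bases before the start. They are related copies of 1 array with similar stretches, and so not independent cases. The stretches of 60 bases lie at chr15:82407216-82407275 (minus strand), chr15:82452299-82452358 (plus strand) and chr15:82764204-82764263 (minus strand), with the motif in capitals.
Cyp2d10: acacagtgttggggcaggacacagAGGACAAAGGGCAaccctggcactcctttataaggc
Cyp2d9: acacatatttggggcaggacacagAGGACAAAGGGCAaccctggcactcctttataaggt
Cyp2d40: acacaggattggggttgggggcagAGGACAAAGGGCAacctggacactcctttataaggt
The match describes letters only, and the Cyp4a genes with the largest changes below, Cyp4a10, Cyp4a12a, Cyp4a12b, Cyp4a14 and Cyp4a31, were not among the promoters matched.

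Liver expressed most of the members and visWAT few. In liver 51 of the 81 had a mean of at least 0.5 FPKM, 37 at least 10 FPKM and 26 at least 100 FPKM, against 19, 4 and 1 in visWAT. Reads on the 81 genes made up 2.06 to 2.51% of all reads on genes in each liver and 0.0616 to 0.605% in each visWAT library. Cyp2c66, Cyp2j12, Cyp3a41a, Cyp4a29 and Cyp4a30b were at 0 in all 36 libraries, Cyp2b19, Cyp2b23, Cyp2j7 and Cyp2w1 were also at 0 in every liver, and the remaining 21 liver members under 0.5 FPKM included Cyp1a1, Cyp1b1, Cyp2s1, Cyp4f18, the female-biased Cyp3a16, Cyp3a41b and Cyp3a44, Cyp2c65, Cyp2c69, Cyp2g1, Cyp2t4 and Cyp4x1. The low values of Cyp3a41a and Cyp3a41b are uncertain, since these copies share most of their windows.

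The 5 highest members by mean FPKM over the 18 livers were Cyp2e1 (4756), the ethanol- and acetone-oxidising P450, then Cyp2d26 (729), Cyp2d9 (646), Cyp2d10 (565) and Cyp4a14 (523). In visWAT they were Cyp2e1 (583), Cyp4b1 (45.0), Cyp4v3 (16.2), Cyp2d22 (14.6) and Cyp1b1 (7.19). Cyp2e1 was thus at the top of the list in both tissues, and the second visWAT gene, the short-chain fatty-acid hydroxylase Cyp4b1, reached 20.2 to 72.1 FPKM there and 5.73 to 9.59 in liver.

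Over all 36 libraries, 52 members passed the filter on low values and every one of the 52 was called between tissues, 47 higher in liver and 5 higher in visWAT, with a median log2 fold change of 5.49. Of all 14657 genes tested, 88.8% were called, 45.4% higher and 43.4% lower in liver, with a median of 0.016. The 5 genes higher in visWAT were Cyp1b1 (log2 fold change of liver against visWAT -2.64), an extrahepatic family 1 member, Cyp4b1 (-2.33), the family 4F genes Cyp4f16 (-1.80) and Cyp4f18 (-1.64), the latter a leukotriene-oxidising P450 of leukocytes, and Cyp2s1 (-0.95). The largest differences towards liver were those of Cyp2d26 (9.02), Cyp2d10 (8.81), Cyp2d9 (8.71) and Cyp2c29 (8.67). By family, 31 of 32 tested genes of family 2, 4 of 4 of family 3, 11 of 14 of family 4 and 1 of 2 of family 1 were higher in liver. The scaling behind FPKM differed between the tissues: with values rescaled to a common sum (TPM), the median of all genes moved to -0.72, the split over all genes to 2747 higher and 11227 lower, and that over the members to 44 higher and 7 lower.

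Sums over the genes of a family differed between diets mainly in family 4 of liver and family 2 of visWAT. In liver, family 4 summed to 2182 ± 250 FPKM (SD, n = 4) in WT NCD, 2155 ± 75.5 (n = 4) in KO NCD, 957 ± 26.3 (n = 5) in WT HFD and 905 ± 190 (n = 5) in KO HFD, and the NCD and HFD mice did not overlap. Family 2, dominated by Cyp2e1, summed to 8479 ± 1961, 9076 ± 330, 10947 ± 1028 and 11874 ± 1261 FPKM in the same order. Family 3 summed to 918 ± 398, 834 ± 118, 618 ± 55.6 and 585 ± 64.5 FPKM, and family 1 to 270 ± 73.0, 355 ± 39.6, 168 ± 15.8 and 288 ± 101 FPKM. In visWAT, family 2 summed to 1202 ± 544 FPKM in WT NCD, 1181 ± 54.5 in KO NCD, 94.8 ± 38.5 in WT HFD and 241 ± 210 in KO HFD, while family 4 summed to 61.6 ± 14.1, 65.6 ± 8.55, 95.6 ± 7.90 and 104 ± 20.9 FPKM. On NCD the visWAT family 2 sum was almost wholly Cyp2e1. Its fall is thus mainly the fall of that gene and not of the family.

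**Figure D1:**
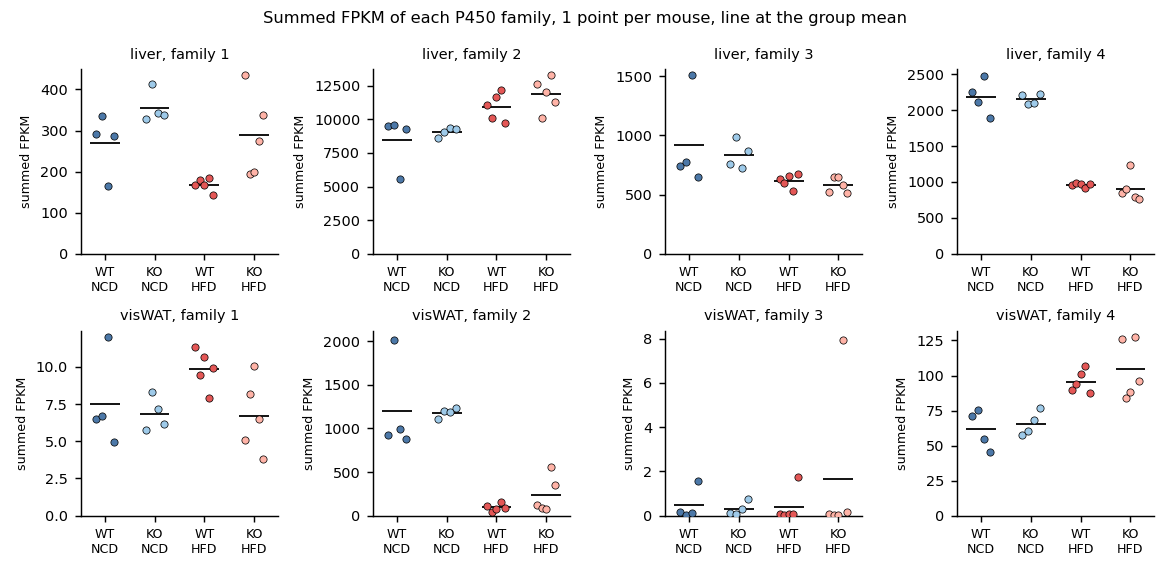
Summed FPKM of P450 families 1 to 4 (vertical axes, linear from 0, 1 panel per tissue and family) in the 4 groups, with 1 point per mouse and a line at the group mean. Family 4 in liver fell into separate ranges on the 2 diets, and family 2 in visWAT went from means of 1202 (WT) and 1181 (KO) FPKM on NCD to 94.8 and 241 on HFD. On NCD the visWAT family 2 sum was almost wholly Cyp2e1.

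In liver the 2 diet comparisons, WT HFD against WT NCD and KO HFD against KO NCD, used different mice. HFD livers held less RNA of Cyp4a, Cyp2c29, Cyp2c55, Cyp2b10 and Cyp3a11 and more of several Cyp2d genes, Cyp3a13 and Cyp4v3. In WT, 22 of the 52 members tested were called, 9 higher and 13 lower on HFD, where 25.3% of all 13330 genes were called, 13.2% higher and 12.1% lower. In KO, 22 of 52 were called, 10 higher and 12 lower, where 22.2% of 13149 genes were called, 11.9% higher and 10.3% lower. The median log2 fold change of the members was 0.11 in WT and -0.048 in KO, beside -0.001 and 0.0026 over all genes. Within a genotype, diet groups that do not overlap were common, at 24.85% (WT) and 21.54% (KO) of all genes tested. Among the members this held for 10 higher and 10 lower on HFD in WT and for 8 higher and 12 lower in KO. By subfamily, 5 of 6 tested Cyp4a genes fell in each genotype (medians -1.98 and -1.83), 0 of 7 Cyp2d genes fell and 3 (WT) or 4 (KO) rose, and of 12 Cyp2c genes 3 (WT) or 2 (KO) fell and none rose.

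The Cyp4a genes held the largest falls among the abundant members. Cyp4a14, a fatty-acid omega-hydroxylase strongly responsive to PPARα, was 989.5, 888, 1362 and 763 FPKM in WT NCD livers, 1018, 838, 813 and 1112 in KO NCD, 155, 177, 239, 163 and 243 in WT HFD and 72.9, 147, 343, 46.5 and 49.7 in KO HFD. All NCD livers lay above all HFD livers, and within KO HFD mouse 153 was above every WT HFD mouse while the other 4 were below every one. The mean was 5.12-fold lower on HFD in WT (-2.34 ± 0.20, adjusted p = 8.23e-05) and 7.17-fold lower in KO (-3.26 ± 0.52, adjusted p = 0.00237).

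Cyp4a10, its close relative, was 516, 443, 705 and 356 FPKM in WT NCD, 531, 481, 463 and 396 in KO NCD, 269, 258, 229, 229 and 225 in WT HFD and 108, 203, 312, 112 and 111 in KO HFD. The diets did not overlap, and the fall was 2.09-fold in WT (-1.02 ± 0.17, adjusted p = 0.002703) and 2.76-fold in KO (-1.59 ± 0.30, adjusted p = 0.00562). Cyp4a31, a lower expressed copy next to it, was 10.3, 10.02, 49.5 and 6.14 FPKM in WT NCD, 13.4, 11.2, 11.1 and 8.92 in KO NCD, 1.92, 1.91, 2.18, 2.17 and 1.98 in WT HFD and 1.05, 1.25, 2.18, 1.56 and 0.999 in KO HFD. Mouse 182 carried most of the WT NCD mean of Cyp4a31, and the groups were apart with and without it: the WT difference was -2.26 ± 0.47, adjusted p = 0.00781, and without mouse 182 -1.67 ± 0.14, adjusted p = 1.06e-04. In KO it was -2.35 ± 0.15, adjusted p = 3.01e-05. Cyp4a32, the sixth tested gene of the array, was not called, with 36.2 ± 2.73 FPKM (SD) in WT NCD and 39.1 ± 4.44 in WT HFD.

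Cyp4a12a and Cyp4a12b encode the male-biased arachidonic-acid hydroxylases whose coding stretches are printed above. Cyp4a12a was 239, 268, 50.3 and 279 FPKM in WT NCD, 211, 232, 293 and 261 in KO NCD, 63.8, 66.5, 27.6, 43.98 and 49.1 in WT HFD and 95.3, 111, 79.7, 93.9 and 71.9 in KO HFD. Cyp4a12b was 97.7, 93.8, 24.2 and 90.1 FPKM in WT NCD, 79.6, 114, 108 and 85.8 in KO NCD, 25.4, 14.96, 9.45, 16.2 and 11.2 in WT HFD and 23.9, 20.8, 12.96, 23.8 and 34.6 in KO HFD. Mouse 182 was the only NCD mouse inside the HFD range for either gene. In KO the groups were apart and the sum of both copies fell by 1.60 on the log2 scale (-1.60 ± 0.12, adjusted p = 4.15e-05).

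In WT the summed copies gave -1.92 ± 0.48, adjusted p = 0.0172, with -1.83 ± 0.50, adjusted p = 0.0255 for Cyp4a12a and -2.12 ± 0.43, adjusted p = 0.00683 for Cyp4a12b alone. Without mouse 182, Cyp4a12a gave -2.42 ± 0.25, adjusted p = 2.67e-04, whereas its call was lost when WT HFD mouse 161, 162 or 164 or WT NCD mouse 165, 180 or 183 was left out (adjusted p from 0.0505 to 0.0702, limma).

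Genes outside the P450 group with known PPARα control, mostly enzymes of fatty-acid oxidation and lipid-droplet proteins, were called in both directions: of 12 tested, 4 rose and 2 fell in WT and 2 rose and 2 fell in KO, with medians of 0.052 and -0.39. The share called in either direction over all genes was 25.3% in WT and 22.2% in KO. Ehhadh, a peroxisomal enzyme, fell with a log2 fold change of -1.98 in WT and -1.97 in KO. Cidec, a lipid-droplet protein, rose in WT (12.98 to 78.1 FPKM), and Pdk4, which restrains glucose oxidation, fell in both genotypes (-1.39 and -1.26). Ppara itself rose, from 38.2 to 60.5 FPKM in WT and from 31.8 to 60.1 in KO.

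**Figure D2:**
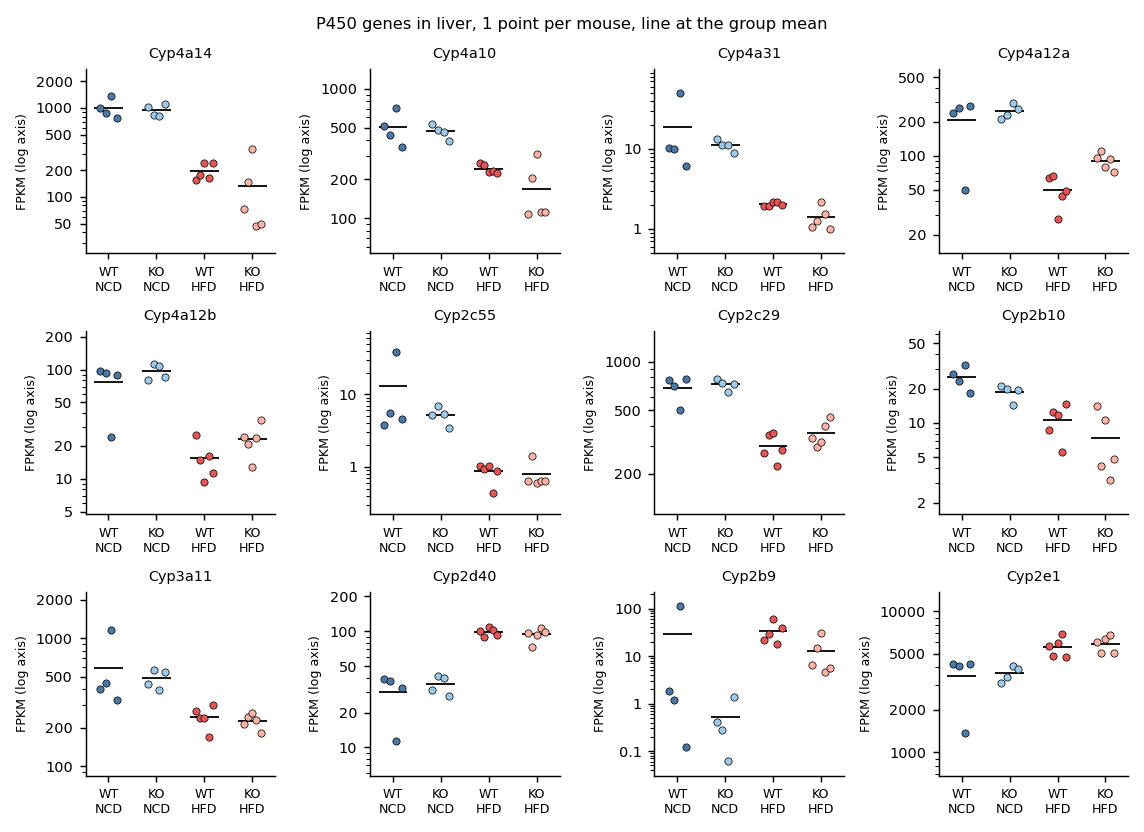
FPKM of 12 P450 genes in liver (vertical axes, log scale), with 1 point per mouse and a line at the mean of each of the 4 groups. The Cyp4a genes, Cyp2c55, Cyp2c29, Cyp2b10 and Cyp3a11 sit lower on HFD, Cyp2d40 and Cyp2e1 higher, and in the WT NCD group the single point far from the other 3 (1366 against 4088 to 4196 FPKM for Cyp2e1) is the liver labelled 182.

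Of the 6 P450 genes listed as responsive to CAR or PXR, 4 fell in each genotype and Cyp2a5 rose in KO, with list medians of -1.15 in WT and -1.06 in KO. Over all genes, 12.1% (WT) and 10.3% (KO) were called lower and 13.2% and 11.9% higher. Cyp2c55, a member known for its induction by CAR ligands, was 3.79, 5.59, 37.9 and 4.52 FPKM in WT NCD, 5.22, 6.798, 5.41 and 3.39 in KO NCD, 1.04, 0.936, 1.02, 0.44001 and 0.876 in WT HFD and 0.644, 1.41, 0.591, 0.633 and 0.643 in KO HFD. The 8 NCD livers were all above the 10 HFD livers, and mouse 182 was the highest of all. The difference was -2.30 ± 0.55, adjusted p = 0.0142 in WT, -1.60 ± 0.14, adjusted p = 1.28e-04 in WT without mouse 182, and -1.79 ± 0.18, adjusted p = 2.01e-04 in KO.

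Cyp2c29, an abundant epoxygenase of the zone around the central vein, was 766, 709.5, 498 and 778 FPKM in WT NCD, 781, 739.5, 645 and 731 in KO NCD, 269, 352, 361, 224 and 282 in WT HFD and 337, 293, 318, 396 and 451 in KO HFD. The diets did not overlap, with means 2.31-fold lower in WT (-1.21 ± 0.18, adjusted p = 0.00127) and 2.02-fold lower in KO (-1.02 ± 0.13, adjusted p = 5.80e-04). Cyp2b10, the classical CAR target, was 26.95, 23.2, 32.3 and 18.3 FPKM in WT NCD, 21.2, 19.9, 14.4 and 19.6 in KO NCD, 8.63, 12.6, 11.8, 5.58 and 14.7 in WT HFD and 14.1, 4.22, 10.7, 3.15 and 4.83 in KO HFD. It was lower on HFD in both genotypes (-1.20 ± 0.25, adjusted p = 0.00843 in WT and -1.40 ± 0.36, adjusted p = 0.0201 in KO). In KO the highest HFD mouse, at 14.1 FPKM, lay just under the lowest NCD mouse, at 14.4, and the KO call was lost without mouse 166 or 199 (adjusted p from 0.0518 to 0.0529).

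Cyp3a11, the main drug-oxidising family 3 gene and a PXR target, fell from 582 ± 383 to 242 ± 48.9 FPKM (SD) in WT (-1.10 ± 0.34, adjusted p = 0.0398) and from 484 ± 80.9 to 224 ± 30.2 in KO (-1.10 ± 0.13, adjusted p = 5.54e-04). The large SD in WT NCD came with mouse 182, at 1152 FPKM against 331 to 445 in the other 3, and without it the WT difference was -0.71 ± 0.18, adjusted p = 0.0169. The call with all mice was lost when any of 7 of the 9 was left out, mouse 182 and 183 being the exceptions (adjusted p from 0.0510 to 0.0855). Of the remaining family 3 genes, Cyp3a13 rose in both genotypes (0.59 in WT and 0.69 in KO), and Cyp3a25 and its near copy Cyp3a59 were not called, together giving 0.066 ± 0.063, adjusted p = 0.489 in WT and -0.10 ± 0.12, adjusted p = 0.622 in KO. The CAR gene Nr1i3 rose, from 8.17 to 22.4 FPKM in WT and from 9.06 to 18.6 in KO.

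Some called genes of family 2 changed by less than 1 on the log2 scale. Cyp2r1, the vitamin D 25-hydroxylase, fell in both genotypes (-0.77 ± 0.12 and -0.66 ± 0.082), as did Cyp2j9 (-0.44 ± 0.077 and -0.83 ± 0.18), an epoxygenase of arachidonic acid. Cyp2c23 was lower in WT (-0.30 ± 0.077) and Cyp2a12 and Cyp2j6 were higher in WT (0.34 ± 0.077 and 0.24 ± 0.058). The Cyp2c23 call was lost without mouse 165 (adjusted p = 0.0526), and with all 4 liver groups in 1 fit neither Cyp2c23 nor Cyp2j6 was called (adjusted p = 0.157 and 0.171). The summed Cyp2c40, Cyp2c67, Cyp2c68 and Cyp2c69 cluster gave -0.16 ± 0.12, adjusted p = 0.372 in WT and -0.056 ± 0.19, adjusted p = 0.863 in KO.

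Of the 7 Cyp2d genes tested, 3 in WT and 4 in KO were called, all higher on HFD, where 13.2% (WT) and 11.9% (KO) of all genes were called higher. Cyp2d40 was 38.6, 37.6, 11.4 and 32.7 FPKM in WT NCD, 31.3, 41.4, 39.4 and 27.5 in KO NCD, 99.8, 90.1, 109, 103 and 92.2 in WT HFD and 97.4, 73.7, 93.8, 108 and 98.2 in KO HFD, so that every HFD liver held more than every NCD liver. It was 3.29-fold higher in WT (1.82 ± 0.31, adjusted p = 0.00294) and 2.7003-fold higher in KO (1.42 ± 0.14, adjusted p = 2.08e-04). Cyp2d13 was higher by 0.89 in WT and 0.75 in KO on the log2 scale, and its WT call was lost without any of 7 of the 9 mice (adjusted p from 0.0507 to 0.0862).

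Cyp2d26, the second most abundant member, was 636, 618, 444 and 624 FPKM in WT NCD, 586, 714, 597 and 615 in KO NCD, 810.3, 788, 844, 813 and 710.4 in WT HFD and 939, 729.8, 866, 925 and 864 in KO HFD. It rose in both genotypes (0.46 ± 0.11, adjusted p = 0.0157 in WT and 0.46 ± 0.094, adjusted p = 0.00768 in KO). Cyp2d10 was 592, 613, 306 and 516 FPKM in WT NCD, 596, 484, 499 and 639.6 in KO NCD, 615, 469.6, 623, 549 and 584 in WT HFD and 611, 565, 551, 670.4 and 689.8 in KO HFD. Its groups overlapped and it was not called (0.21 ± 0.20, adjusted p = 0.476 and 0.16 ± 0.11, adjusted p = 0.327).

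Cyp2e1 was 4187, 4088, 1366 and 4196 FPKM in WT NCD, 3098, 3404, 4094 and 3907 in KO NCD, 5685, 4802, 5948, 6829.6 and 4727 in WT HFD and 6038, 5058, 6324, 6776 and 5084 in KO HFD. All HFD livers lay above all NCD livers. It was called in KO, 1.62-fold higher (0.69 ± 0.12, adjusted p = 0.00418), but not without a filter or with all 4 liver groups in 1 fit (adjusted p = 0.0686 and 0.0576). In WT the difference was 0.82 ± 0.33, adjusted p = 0.09901 with mouse 182 and 0.42 ± 0.12, adjusted p = 0.0312 without it. Cyp4v3, a fatty-acid hydroxylase outside the PPARα list, rose in both genotypes (0.76 ± 0.15 and 0.68 ± 0.12), as did Cyp4f15 (0.22 ± 0.063 and 0.29 ± 0.075), and Cyp4f17 rose in WT (0.36 ± 0.07). The Cyp4f15 call was lost without any of 7 of the 9 mice in WT and without mouse 166, 197 or 199 in KO (adjusted p from 0.0518 to 0.0693).

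Genes with a sex difference in mouse liver were called in both directions. Of the 3 male-biased members, Cyp4a12a and Cyp4a12b fell as given above and Cyp2d9 was not lower. Cyp2d9 was 569, 532, 39.8 and 587 FPKM in WT NCD, 583, 468, 705 and 624 in KO NCD, 747, 660.3, 653, 743 and 628 in WT HFD and 842, 724, 694, 1024 and 807 in KO HFD. It rose in KO (0.46 ± 0.14, adjusted p = 0.0426), a call that was lost without mouse 151, 156, 157, 166, 179 or 199 (adjusted p from 0.0706 to 0.0951), and in WT it was called without mouse 182 (0.28 ± 0.072, adjusted p = 0.0183) and not with it (1.23 ± 0.72, adjusted p = 0.249).

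Cyp2b9, a female-biased member, was 1.87, 1.196, 112 and 0.1202 FPKM in WT NCD, 0.412, 0.276, 0.0609 and 1.39 in KO NCD, 21.7, 28.9, 59.05, 17.98 and 38.2 in WT HFD and 6.42, 14.9, 31.3, 4.56 and 5.54 in KO HFD. Apart from mouse 182, every HFD liver held more Cyp2b9 than every NCD liver. The mean was 23.4-fold higher on HFD in KO (2.87 ± 0.50, adjusted p = 0.00342). In WT the difference was 2.56 ± 1.18, adjusted p = 0.145 with mouse 182 and 4.03 ± 0.41, adjusted p = 2.42e-04 without it. Of the 9 female-biased members, 4 were tested in WT and 3 in KO, and Cyp3a16, Cyp3a41b and Cyp3a44 stayed at or under 0.498, 0.0586 and 0.246 FPKM in every liver, with Cyp3a41a at 0. Values of Cyp3a41a and Cyp3a41b are uncertain because of their shared windows.

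Cyp2a5, a nicotine- and coumarin-oxidising P450, rose in KO from 303 ± 73.5 to 436 ± 31.6 FPKM (0.56 ± 0.15, adjusted p = 0.0229) and summing it with Cyp2a4 changed little there (0.55 ± 0.15, adjusted p = 0.0251). The KO call of Cyp2a5 was lost without mouse 153, 179 or 197 (adjusted p from 0.0521 to 0.0584). In WT, Cyp2a5 was 0.49 ± 0.26, adjusted p = 0.195 with mouse 182 and 0.80 ± 0.11, adjusted p = 0.00109 without it. Cyp2a4 changed direction with that library, from -0.81 ± 1.45, adjusted p = 0.728 with it to 1.08 ± 0.23, adjusted p = 0.00853 without it, at a level of 0.227 to 0.626 FPKM in the other 3 WT NCD livers and 1.37 to 3.74 in WT HFD.

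**Figure D3:**
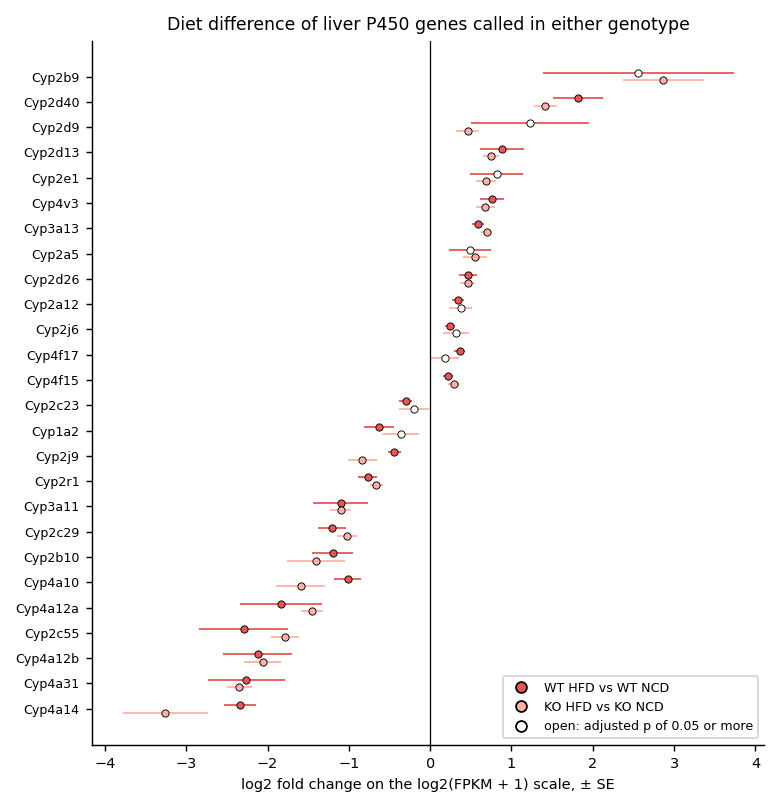
Log2 fold changes of HFD against NCD on the log2(FPKM + 1) scale (horizontal axis, bars ± SE) for the 26 liver P450 genes called in WT, in KO or in both, with open points where the adjusted p was 0.05 or more. The Cyp4a genes lie between -3.26 and -1.02, and Cyp2d40 is at 1.82 in WT and 1.42 in KO.

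The liver of WT NCD mouse 182 differed from the other 3 WT NCD livers across the members. Of the 51 members at a mean of at least 0.5 FPKM in liver, 18 were above and 25 below the other 3, 16 were above and 16 below all the other 17 livers, and 23 were more than 2 times from the mean of the other 3. Female-biased Cyp2a4 was 267 FPKM against 0.227 to 0.626, Cyp2b9 was 112 against 0.120 to 1.87, and Cyp2b13 was 1.18 against 0 to 0.0285. The female-biased Cyp3a16, Cyp3a41a, Cyp3a41b and Cyp3a44 stayed near 0 in that liver, with 1, 0, 0 and 10 reads, so not all female-biased members were high. Male-biased Cyp2d9 was 39.8 FPKM against 532 to 587, Cyp4a12a was 50.3 against 239 to 279, and Cyp2u1, a fatty-acid hydroxylase, was 1.03 against 5.80 to 6.14.

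Some other sex-biased liver genes lay apart as well: in that liver Hsd3b5 was 0.125 FPKM against 83.5 to 103 in the other 3, Elovl3 was 2.93 against 310 to 414, and Cux2, which is high in female liver, was 1.89 against 0.0224 to 0.0420. The Y-linked Ddx3y was 16.97 FPKM there, within the 15.6 to 21.0 of all livers. What set this liver apart was not tested. Over the 9 livers of each genotype, the 7 other male-biased genes tested gave 0 calls in WT and 1 higher and 1 lower in KO, where Elovl3 fell (-3.51). Leaving it out of the WT diet comparison gave 32 called members where 28.5% of all genes were called, with Cyp2a22, Cyp2a4, Cyp2a5, Cyp2b9, Cyp2c38, Cyp2c39, Cyp2d9, Cyp2e1, Cyp2u1 and Cyp3a59 gained and none lost.

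**Figure D4:**
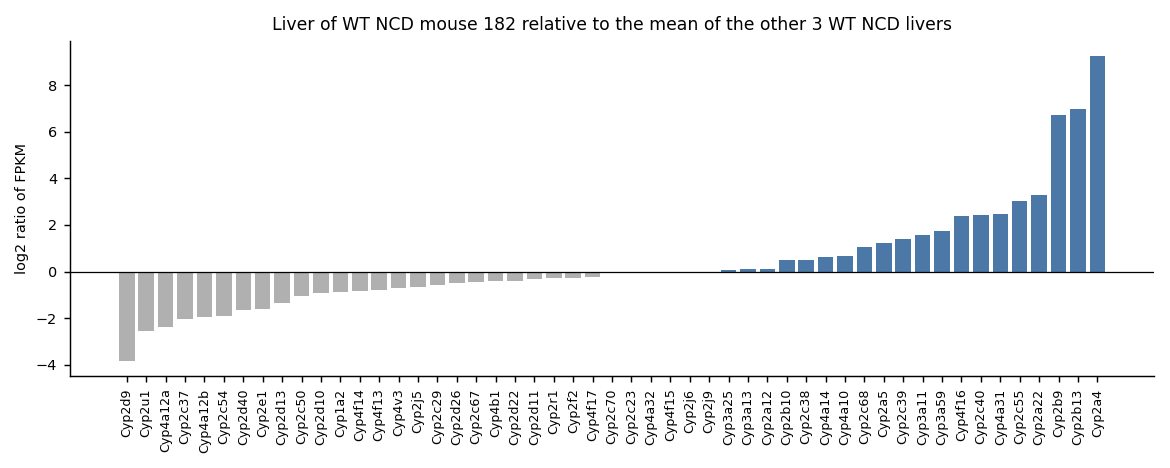
Log2 ratio of FPKM in the liver labelled WT NCD 182 to the mean of the other 3 WT NCD livers (vertical axis) for the members at a mean of at least 0.5 FPKM in liver, in rising order. The bars run from Cyp2d9 at the low end to Cyp2a4, at 267 against 0.227 to 0.626 FPKM, at the high end.

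Family 1 was low apart from Cyp1a2, the caffeine-oxidising P450 of the liver. Cyp1a2 was 164 to 334 FPKM in WT NCD, 327 to 413 in KO NCD, 144 to 184 in WT HFD and 194 to 434 in KO HFD. It was called lower in WT (-0.63 ± 0.19, adjusted p = 0.0353), a call lost when any 1 of the 8 mice other than 182 was left out (adjusted p from 0.0529 to 0.0906), and was not called in KO (-0.36 ± 0.23, adjusted p = 0.283), and the difference between these diet effects was 0.27 ± 0.31, adjusted p = 0.987. Cyp1a1 passed the filter in KO, where it was called lower, from 0.826 ± 0.0673 to 0.326 ± 0.219 FPKM (-0.48 ± 0.12, adjusted p = 0.0215), a call lost without mouse 166 or 197 (adjusted p from 0.0533 to 0.0583). In WT it was under the filter, with 0.954, 0.9005, 0.156 and 0.971 FPKM in NCD and 0.0183 to 0.287 in HFD livers, and without a filter it was called lower there too (-0.62, adjusted p = 0.0448). The receptor gene Ahr fell in both genotypes (-0.63 and -0.47).

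Genes that serve or control the P450 enzymes were tested in the same comparisons, where 25.3% (WT) and 22.2% (KO) of all genes were called. Of the 6 electron partners, 2 rose and 2 fell in WT and 1 rose and 3 fell in KO. Por, the reductase that supplies all of these enzymes, was 98.9, 114, 138 and 118 FPKM in WT NCD, 75.4, 87.8, 94.2 and 119.8 in KO NCD, 269.9, 267, 287, 292 and 278 in WT HFD and 279, 232, 303, 299 and 247 in KO HFD, and rose 2.38-fold in WT and 2.89-fold in KO. Pgrmc2 and the cytochrome Cyb5b fell in both (-0.74 and -0.63 in WT, -0.97 and -0.79 in KO).

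Of the 18 regulators tested, 11 rose and 2 fell in WT and 10 rose and 1 fell in KO, with list medians of 0.54 and 0.60. They included Onecut1 in WT (1.46 to 14.96 FPKM), a liver-enriched factor, and the clock-driven factor Dbp (1.04 in WT and 1.28 in KO). Of 12 genes of heme synthesis and breakdown, 1 rose and 2 fell in WT and 1 fell in KO, a share no higher than that of all genes, and Alas1, which sets the rate of heme synthesis, rose in WT from 63.1 to 285 FPKM (2.24 ± 0.24, adjusted p = 2.68e-04). Hepatocyte markers moved with the diet too, 1 higher and 4 lower of 10 in WT and 1 higher and 5 lower in KO, with Alb at -0.61 and -0.50, and summed to 70942 to 83318 FPKM on NCD and 54468 to 66979 on HFD. The 10 mature adipocyte markers, listed for fat, summed to 445 to 969 FPKM in NCD livers and 1121 to 1842 in HFD livers, where 4 of 6 tested rose in WT and 3 in KO. The part of either list in the P450 differences was not tested.

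In visWAT, HFD went with far less Cyp2e1 and Cyp2f2 and with more Cyp4b1, Cyp4v3, Cyp4f18 and Cyp2c23 in both genotypes. In WT, 10 of 17 tested members were called, 6 higher and 4 lower, where 37.8% of all 14161 genes were called, 21.9% higher and 15.8% lower. In KO, 9 of 21 were called, 6 higher and 3 lower, where 43.7% of 14026 genes were called, 23.3% higher and 20.3% lower. Diet groups did not overlap for 33.42% (WT) and 38.35% (KO) of all genes tested. Among the members this held for 6 higher and 5 lower on HFD in WT and for 5 higher and 1 lower in KO. The members' median log2 fold change was 0.044 in WT and 0.24 in KO, beside -0.0061 and 0.0094 over all genes. The KO set held 4 Cyp2d genes and 1 Cyp3a gene, where the WT set held 1 Cyp2d gene and no Cyp3a gene. Of these, Cyp2d26, Cyp2d9, Cyp2d10 and Cyp3a25 passed the filter mainly through the library KO HFD 156, described below. They count among the 21 tested in KO and enter the KO median. The WT comparison depended on the scaling: on the TPM scale the median of all genes moved to 0.35, the calls over all genes from 3108 higher and 2239 lower to 4113 higher and 233 lower, and those of the members to 7 higher and 3 lower, with Cyp2d22 and Cyp4f17 no longer called. The common sum includes the seminal vesicle genes of WT NCD 183, at 254930 FPKM, which lowers all other genes of that library. Its part in the shift was not tested. With edgeR on the read counts the split was 2693 higher and 3169 lower over all genes and 5 higher and 6 lower over the members. Without the libraries labelled WT NCD 182 and 183, a choice made after seeing the data, 13 of 16 members were called where 52.1% of all genes were, with Cyp2j6, Cyp2j9 and Cyp2r1 gained and none lost.

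Cyp2e1 was 882, 1956, 954 and 840.3 FPKM in visWAT of WT NCD mice, 1059, 1149.8, 1145 and 1184 in KO NCD, 76.7, 22.4, 53.6, 126 and 55.2 in WT HFD and 89.6, 67.3, 58.3, 458 and 320.1 in KO HFD. Every NCD mouse was above every HFD mouse, and among KO HFD mice 156 and 157 were above all WT HFD mice. The visWAT library of mouse 156 held the most hepatocyte marker RNA, and Cyp2e1 is the highest member in liver. The part of liver RNA in its 458 FPKM was not tested. The mean was 17.4-fold lower on HFD in WT (-4.20 ± 0.45, adjusted p = 8.99e-05) and 5.71-fold lower in KO (-3.02 ± 0.60, adjusted p = 0.00404). In the livers of the same mice every HFD value of Cyp2e1 was above every NCD value, as given above.

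Cyp2f2, a naphthalene-oxidising P450 best known from lung and periportal liver, was 6.87, 21.8, 7.97 and 10.7 FPKM in WT NCD, 18.5, 17.6, 7.44 and 11.2 in KO NCD, 0.146, 0.0829, 0.245, 0.08196 and 0.615 in WT HFD and 0.0601, 0.0947, 0.04103, 9.01 and 0.3997 in KO HFD. Mouse 156, whose visWAT library held the most hepatocyte marker RNA, was the only HFD mouse inside the NCD range. The difference was -3.26 ± 0.28, adjusted p = 2.32e-05 in WT and -2.98 ± 0.66, adjusted p = 0.00635 in KO (-3.61 without mouse 156), and the KO call was lost with edgeR and DESeq2 on the read counts (adjusted p 0.0879 and 0.0874).

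That library also held liver P450 genes that visWAT otherwise lacked. Cyp2d26 was 13.8 FPKM in KO HFD 156, Cyp2d9 12.2, Cyp2d10 9.52, Cyp3a25 4.56 and Cyp2a5 3.39, and in each of the other 17 visWAT libraries these 5 genes were at or under 2.28 FPKM. The next values, 2.28, 1.70 and 1.63 FPKM of Cyp2d26, Cyp2d9 and Cyp2d10, were those of WT HFD 164, whose Alb was 53.2 FPKM. Cyp2d26, Cyp2d9, Cyp2d10 and Cyp3a25 passed the filter of the KO diet comparison mainly through the library of mouse 156, and none of them was called. Without mouse 156, 11 members were called in the KO diet comparison where 45.5% of all genes were, with Cyp2s1 and Cyp4f17 gained and none lost.

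Cyp4b1 was 38.1, 44.0, 24.6 and 20.2 FPKM in WT NCD, 28.3, 29.1, 33.3 and 39.7 in KO NCD, 49.2, 55.1, 53.3, 61.7 and 46.4 in WT HFD and 72.1, 43.6, 46.3, 69.05 and 55.4 in KO HFD. All HFD mice of a genotype were above its NCD mice (0.79 ± 0.21, adjusted p = 0.0177 in WT and 0.78 ± 0.17, adjusted p = 0.00605 in KO). Cyp4v3 was 11.3, 8.42, 8.54 and 6.88 FPKM in WT NCD, 8.68, 8.897, 12.1 and 12.8 in KO NCD, 19.1, 18.6, 23.6, 21.7 and 19.2 in WT HFD and 29.4, 19.7, 19.6, 25.2 and 18.2 in KO HFD. The diets did not overlap, with 2.33-fold more in WT (1.15 ± 0.13, adjusted p = 1.15e-04) and 2.11-fold more in KO (1.01 ± 0.17, adjusted p = 0.00166).

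Cyp4f18 was 2.44, 1.63, 1.31 and 1.83 FPKM in WT NCD, 2.105, 2.07, 3.55 and 1.99 in KO NCD, 4.18, 4.13, 5.75, 5.76 and 3.905 in WT HFD and 4.199, 4.001, 5.67, 4.09 and 3.27 in KO HFD. It was higher on HFD in both genotypes (1.04 ± 0.14, adjusted p = 4.18e-04 in WT and 0.62 ± 0.15, adjusted p = 0.0107 in KO), with overlap in KO through mouse 197. Cyp2c23, an arachidonic-acid epoxygenase known from kidney, was 0.0651, 0.0893, 0.188 and 0.136 FPKM in WT NCD, 0.141, 0.106, 0.191 and 0.528 in KO NCD, 0.855, 1.18, 1.29, 1.12 and 1.301 in WT HFD and 1.47, 1.104, 0.898, 2.97 and 0.779 in KO HFD. Its levels were low and its groups apart (0.94 ± 0.085, adjusted p = 3.03e-05 in WT and 0.92 ± 0.23, adjusted p = 0.00987 in KO).

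Cyp1b1, which oxidises oestrogens and polycyclic hydrocarbons, was 5.93, 5.94, 6.63 and 4.73 FPKM in WT NCD, 5.62, 7.65, 6.79 and 5.596 in KO NCD, 11.3, 9.47, 10.7, 7.89 and 9.14 in WT HFD and 5.09, 8.197, 10.03, 5.09 and 3.72 in KO HFD. All WT HFD mice were above all WT NCD mice (0.65 ± 0.11, adjusted p = 0.00176), and in KO the HFD mice spread over and beyond the NCD range (-0.058 ± 0.23, adjusted p = 0.86005). The difference between the diet effects was -0.71 with an unadjusted p of 0.0195 and an adjusted p of 0.3495, and so was not called.

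Cyp2d22 was 21.4, 22.4, 14.03 and 12.99 FPKM in WT NCD, 16.1, 18.2, 17.5 and 22.4 in KO NCD, 12.9, 8.87, 11.6, 11.1 and 10.7 in WT HFD and 15.6, 8.81, 10.5, 16.6 and 11.01 in KO HFD. It fell in WT (-0.61 ± 0.17, adjusted p = 0.0215) and in KO (-0.56 ± 0.18, adjusted p = 0.0311), with overlap in KO. The WT call was lost without mouse 155, 165 or 180 and the KO call without mouse 152, 153, 157, 179, 197 or 199 (adjusted p from 0.0521 to 0.0866). Cyp4f17 was 7.04, 9.05, 8.704 and 4.62 FPKM in WT NCD, 6.57, 7.27, 6.64 and 6.84 in KO NCD, 4.38, 3.801, 4.61, 4.42 and 4.33 in WT HFD and 6.29, 4.402, 4.15, 6.66 and 5.4998 in KO HFD, and was lower in WT (-0.62 ± 0.16, adjusted p = 0.0126) with FPKM but not on the TPM scale (-0.24). Cyp2s1 rose in WT (0.56 ± 0.17), and Cyp4f16 in KO (0.18 ± 0.065), calls that were lost without any of 3 mice (Cyp2s1) or any of 7 (Cyp4f16).

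Cyp2r1 was 0.638, 0.593, 2.41 and 0.417 FPKM in WT NCD, 0.548, 0.708, 0.848 and 0.571 in KO NCD, 1.20, 1.397, 1.18, 0.837 and 0.966 in WT HFD and 1.01, 1.32, 1.06, 0.898 and 1.16 in KO HFD. The KO groups were apart (0.32 ± 0.083, adjusted p = 0.01205), and in WT the highest mouse was again 182 (0.16 ± 0.24, adjusted p = 0.62004). Cyp1a1, a known AhR target, was 0.199 to 5.35 FPKM in WT NCD visWAT and at or under 0.0198 in WT HFD, and the groups did not overlap. It was not called by the main test (-1.07 ± 0.42, adjusted p = 0.0708), but was called with a pseudocount of 0.1, on the TPM scale, with edgeR, with DESeq2 and with all 4 groups in 1 fit (adjusted p from 2.65e-07 to 0.0356), and not without a filter (0.133). Its highest value was that of mouse 182, without which it fell under the filter.

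**Figure D5:**
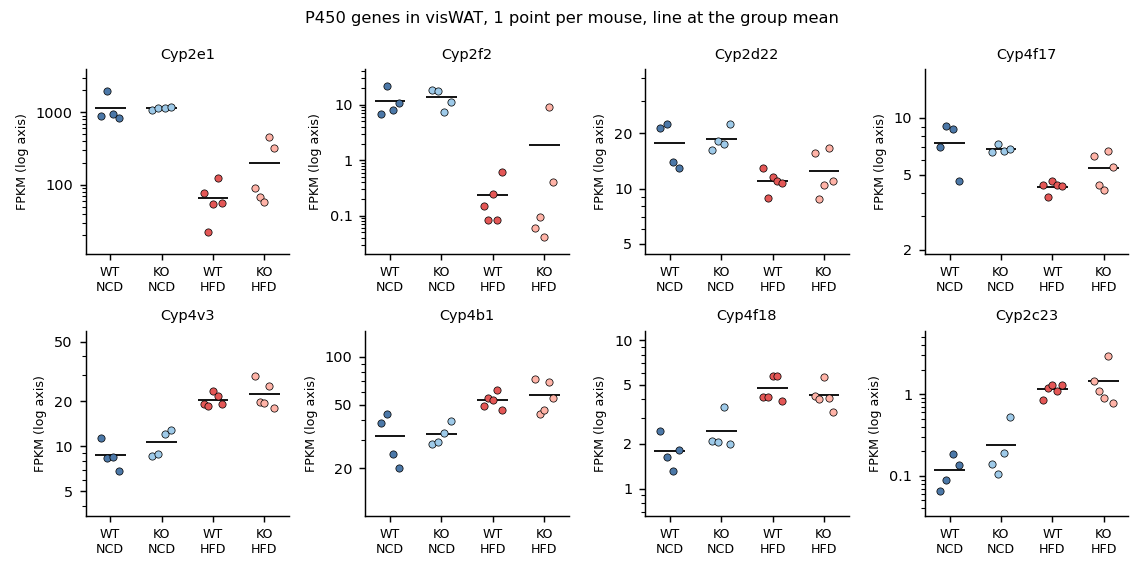
FPKM of 8 P450 genes in visWAT (vertical axes, log scale), with 1 point per mouse and a line at the mean of each of the 4 groups. Cyp2e1, Cyp2f2 and Cyp2d22 sit lower and Cyp4v3, Cyp4b1, Cyp4f18 and Cyp2c23 higher on HFD, and the point at 9.01 FPKM of Cyp2f2 is KO HFD mouse 156.

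Marker RNA of several cell types in visWAT differed between diets at the same time. Macrophage markers summed to 175 to 270 FPKM in WT NCD, 233 to 407 in KO NCD, 1732 to 2529 in WT HFD and 640 to 2288 in KO HFD, and 9 of 9 tested rose in WT and 8 of 9 in KO. Mature adipocyte markers summed to 13909 to 26425, 20714 to 25613, 6148 to 8090 and 7056 to 16434 FPKM in the same order, with 1 of 10 higher and 6 lower in WT and 2 higher and 3 lower in KO. Stromal markers rose for 7 of 7 genes in WT and 4 of 7 in KO. Over all visWAT genes, 37.8% (WT) and 43.7% (KO) were called. The called share of the adipocyte markers in KO was close to the latter. The part of these shifts in the P450 differences was not tested.

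Where 37.8% (WT) and 43.7% (KO) of all visWAT genes were called, the called electron partners and regulators were mostly lower on HFD: 4 of 6 partners fell in WT and 3 fell and 1 rose in KO, and of 14 regulators 4 fell and 1 rose in WT and 8 fell in KO. Por went from 98.5 to 58.7 FPKM in WT and from 112 to 74.2 in KO, opposite to liver. Cebpa, an adipocyte and hepatocyte factor, fell in both genotypes (-0.91 and -0.80), as did Esr1, the oestrogen receptor (-0.80 and -0.68). Of the other AhR targets tested, Nqo1 and Tiparp fell in both genotypes (-0.86 and -0.59 in WT, -0.61 and -0.76 in KO). Of 12 heme genes 4 rose and 2 fell in WT and 4 rose and 1 fell in KO, with the heme-degrading Hmox1 among those that rose (2.13 and 1.66). The called share of the regulators in WT and of the heme genes in KO was close to that of all genes.

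Between genotypes, on the same diet, limma called none of the members in either tissue. Each genotype comparison used groups that the diet comparisons also used. In liver on HFD, 0 of 50 tested members were called where 0.197% of all 13215 genes were, and 15 members had an unadjusted p under 0.05. Counts at an unadjusted p under 0.05, here and below, were not set against the share of all genes. They are therefore not read as a result about the members. The read-count tests called 1 member with edgeR, Cyp2u1 (0.204% of all genes), and 3 with DESeq2, Cyp2u1, Cyp1a2 and Cyp4a12a (1.96% of all genes). These 3 were also those whose KO HFD mice all lay above all WT HFD mice, a pattern of 2.62% of all genes in either direction, and none lay wholly below.

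Cyp2u1 was 3.92 ± 0.321 FPKM (SD, n = 5) in WT HFD and 7.16 ± 1.77 (n = 5) in KO HFD, a log2 fold change of 0.71 ± 0.13 with adjusted p = 0.0765 by limma, 0.0470 by edgeR and 1.93e-05 by DESeq2. Cyp1a2 was 168 ± 15.7 and 288 ± 101 FPKM, with adjusted p = 0.222 by limma, 0.143 by edgeR and 0.00575 by DESeq2. For Cyp4a12a the means were 50.2 ± 15.8 and 90.4 ± 15.1 FPKM, with adjusted p = 0.153, 0.135 and 0.00403, and with Cyp4a12b added to it limma gave 0.83 ± 0.21, adjusted p = 0.155. Cyp2b9 was lower in KO HFD, at 12.5 ± 11.3 against 33.1 ± 16.4 FPKM, with overlap (-1.55 ± 0.49, adjusted p = 0.255).

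Within KO HFD livers several members split by mouse. Cyp2c38 was 8.34, 11.8 and 5.58 FPKM in mice 151, 156 and 157 and 28.6 and 32.6 in mice 152 and 153, where WT HFD mice held 27.3 to 35.6. Cyp2c70, a bile-acid hydroxylase, was 363, 329 and 328 FPKM in the first set and 143 and 160.3 in the second, and WT HFD mice held 154 to 214. The same 3 mice had the lowest Cyp4a14 and Cyp4a10. Cyp2c38 and Cyp2c70 were singled out after their values were seen, and no groups were formed from this split.

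On NCD, 0 of 52 liver members were called between genotypes, where 0.00758% of 13193 genes were, and 1 member had an unadjusted p under 0.05 (5 with edgeR and 4 with DESeq2, which also called none). In visWAT, 0 of 22 members were called on HFD (0.0215% of 13963 genes) and 0 of 16 on NCD (0% of 14063 genes), with 4 and 0 members at an unadjusted p under 0.05 (5 and 1 with edgeR and with DESeq2, which called none). Rescaled to TPM, the median of all genes between genotypes in visWAT on NCD moved to 0.30 and that of the interaction to -0.37, and no member was called on that scale either. Cyp4f16 was the only visWAT member whose KO HFD mice all lay above the WT HFD mice (3.01% of all genes in either direction), at 6.03 ± 0.504 against 5.402 ± 0.123 FPKM (0.13 ± 0.054, adjusted p = 0.222). Cyp2e1 in visWAT was 199 ± 181 FPKM in KO HFD and 66.7 ± 38.2 in WT HFD, with overlap (1.25 ± 0.64, adjusted p = 0.262). The KO HFD values include mouse 156, whose visWAT library held the most hepatocyte marker RNA.

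No diet effect on a member was shown to differ between genotypes. The interaction of diet and genotype called 0 of 51 members in liver (0.0151% of 13248 genes) and 0 of 19 in visWAT (0% of 14136 genes), with 0 and 1 members at an unadjusted p under 0.05 by limma, 2 and 3 by edgeR and 2 and 3 by DESeq2, neither of which called any. For Cyp4a14 in liver, whose diet difference was -2.34 in WT and -3.26 in KO, the interaction was -0.92 ± 0.60, adjusted p = 0.943, and for Cyp2e1 in visWAT it was 1.19 ± 0.80, adjusted p = 0.4997.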

How the data were processed

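RNA-seq of liver and visWAT of 18 mice gave 36 libraries of 150-base paired reads. The authors aligned reads to mm39 with HISAT2, counted them per gene with featureCounts 1.5.0-p3 and deposited gene FPKM, the values used here; strand setting, annotation release and handling of multi-mapping reads are not given in the sources used here. FPKM were deposited in a table that matches whole reads: read counts recovered from them were whole within 0.01 reads for 100% of values and served the count tests, with 20875463 to 30322171 reads per library. The library sizes behind FPKM were 0.737 to 0.812 times the reads on genes in liver and 1.01 to 1.40 times in visWAT. The authors' comparison tables, with fold changes, p-values and 72 further per-sample columns, were not used.

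Members follow a rule on gene names and annotation, but this group of genes and the gene lists were picked with earlier results of these data known. Genes whose FPKM averaged 0.5 or more over the libraries compared were tested with limma 3.58.1 (R 4.3.3) on log2(FPKM + 1) with an intensity trend, on the groups compared, or over all 18 libraries of a tissue for the interaction and all 36 for the tissues, with Benjamini-Hochberg adjustment over all genes. The scripts were tested on simulated data. As alternatives, the filter was dropped or raised to 1 FPKM, the pseudocount was set to 0.1, and further fits used the TPM scale, edgeR 4.0.16 and DESeq2 1.42.0 on the recovered reads, sums of near-identical members, all 4 groups in 1 fit, each mouse left out, and the mouse as a replicate block between tissues, which come from the same animals. No replicates agreed within counting noise (lowest chi-square per gene 9.82). Values per mouse are printed for the 5 highest members of each tissue and the 8 largest called changes of each comparison among members at 1 FPKM or more in a group. Other list genes were named when called, up to 3 per list and comparison with the largest changes. Ppara, Ahr, Nr1i3, Alb, Hsd3b5, Elovl3, Cux2 and Ddx3y, where they fell outside this rule, were named after their values were seen. Protein identity was computed from the annotation's coding sequences of GRCm39.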

Additional observations from a re-analysis of the deposited data

Results flagged for a closer look

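In groups of 4 or 5 mice, a value was set aside for a closer look when its gap to the nearest other value was a large part of the group's range (Dixon's 95% limit). Of 96 groups of the genes with values per mouse, 13 met this, where chance gives about 1 in 20.

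Of these, 7 came from the liver labelled WT NCD 182. Cyp2b9 was 112 FPKM there against 0.120 to 1.87 in the other 3 mice, Cyp2c55 was 37.9 against 3.79 to 5.59 and Cyp4a31 was 49.5 against 6.14 to 10.3. On the low side, Cyp2d9 was 39.8 FPKM against 532 to 587, Cyp2e1 was 1366 against 4088 to 4196, Cyp2d26 was 444 against 618 to 636 and Cyp4a12b was 24.2 against 90.1 to 97.7. The visWAT library of the same label held 2.41 FPKM of Cyp2r1 against 0.417 to 0.638.

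The other 5 came from 5 mice. In liver, Cyp2c55 was 1.41 FPKM in KO HFD 152 against 0.591 to 0.644 and 0.440 in WT HFD 162 against 0.876 to 1.04. In visWAT, Cyp2e1 was 1956 FPKM in WT NCD 180 against 840.3 to 954, Cyp2f2 was 9.01 in KO HFD 156 against 0.0410 to 0.400, and Cyp4f18 was 3.55 in KO NCD 197 against 1.99 to 2.11. Causes were not tested.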

How the results depend on the processing

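None of the 8 largest called changes of each diet comparison changed direction under the alternatives run. Counts of called members were compared by their totals only, which cannot show a change of direction. The split into higher and lower did change in WT visWAT with edgeR, as given above. Of the counts of called members, 196 equalled or stayed within 1.5 times the main count. The other 2 were both for liver KO HFD against WT HFD, where edgeR called 1 member and DESeq2 3 against 0 with limma. Most of the 196 came from the genotype and interaction comparisons, where 0 members were called in the main test and 0 in the alternative. Such pairs of 0 cannot show whether a call is stable. Of the values of those largest changes, 530 kept their side of the threshold and 18 lost the call: Cyp4a12a in liver of WT mice without a filter (adjusted p = 0.0588, limma) and without 6 of the mice, Cyp4f17 in visWAT of WT mice on the TPM scale (0.565), Cyp2f2 in visWAT of KO mice with edgeR and DESeq2, Cyp2r1 there with all 4 groups in 1 fit (0.169), and Cyp2d22 there without a filter and without 6 of the mice. Among the other called members, the call was lost without a filter for Cyp1a2, Cyp3a11 and Cyp2d13 in WT liver, Cyp2a5, Cyp2e1, Cyp2b10 and Cyp2d9 in KO liver, Cyp2s1 in WT visWAT and Cyp4f16 in KO visWAT. With all 4 groups in 1 fit it was lost for Cyp2c23, Cyp2j6 and Cyp4f17 in WT liver, Cyp2a5, Cyp2e1 and Cyp2d9 in KO liver and Cyp4f16 in KO visWAT. It was lost on the TPM scale for Cyp3a11 in WT liver and for Cyp2d22 in WT and Cyp4f16 in KO visWAT, with edgeR for Cyp2s1 in WT visWAT, and with edgeR and DESeq2 for Cyp4f16 (adjusted p from 0.0522 to 0.716 over these). Cyp1a1 in KO liver fell under the filter on the TPM scale and at 1 FPKM, as did Cyp2c23 in visWAT and Cyp2r1 in KO visWAT at 1 FPKM. Leaving out each mouse gave 16 to 32 called members for diet in WT liver, 18 to 28 in KO liver, 8 to 13 in WT visWAT, 7 to 11 in KO visWAT and 0 in the genotype and interaction comparisons. With the mouse as a replicate block, which pairs liver and fat of an animal, 52 members were called between tissues as without it. DESeq2 gave 38 there, with no adjusted p for 14. The summed near-identical genes and the libraries left out after seeing the data are given beside the results. With 4 to 5 mice per group, differences near the printed standard errors were not resolvable, and members under about 1 FPKM rest on few reads.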
